A study of Homo sapiens with 4 samples.

Results

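Annotated microexons are described here: internal exons of 3 to 27 bases that at least 1 Ensembl transcript includes and at least 1 other Ensembl transcript skips. They were chosen by exon length and annotation among the events listed in at least 1 library, so a member had at least 1 of its transcripts found, and no other measured value was used. The rule found 622 skipped-exon events among the 287868 distinct alternative splicing events of the study. These events concern 600 distinct exons in 523 host genes, because 19 exons occurred in more than 1 event with different flanking exons. Coordinates are those of the deposited lists, on hg38.

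Full-length cDNA from cells labelled Huh7, a line derived from a human hepatocellular carcinoma, was sequenced as long reads on a PacBio Sequel instrument. The comparison asked how transcripts differ after knockdown of STAMBPL1, a deubiquitinase of the AMSH family. Libraries siSTAMBPL1 replicates 1 and 2 came from cells transfected with an siRNA against STAMBPL1, and libraries siNC replicates 1 and 2 from cells transfected with a negative control siRNA. The cells of all 4 libraries received the same lipid transfection reagent, and no untransfected cells were part of the design. The labels do not say whether replicates were separate cultures, so every p-value measures only the spread between these libraries, which may be technical.

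Microexons are so short that the spliceosome has little exonic sequence to recognise, and many need intronic enhancers bound by dedicated splicing factors. In neurons the factor SRRM4, with its relative SRRM3, promotes the inclusion of a large microexon programme. Neuronal microexons mostly keep the reading frame and insert a few residues at the surface of protein interaction domains, while outside the nervous system most of them are skipped. RBFOX and QKI proteins act on further microexons in muscle and brain, and PTBP1 represses neuronal ones in other cells.

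Each deposited list names, for every event found in a library, the transcripts that use one form and the transcripts that use either form. Some names are Ensembl transcripts, and others begin with PB, the prefix PacBio software gives to transcript models built from the reads. A list holds no read number and no expression value. A PB transcript with the exon is called PB inclusion below, and one without it PB skipping. The number of PB transcripts counts distinct transcript structures, not molecules, so it gives no percentage of inclusion. Events listed without any PB transcript numbered 31268 and 29355 in the siSTAMBPL1 libraries and 32376 and 32763 in the siNC libraries. They name Ensembl transcripts alone, so a form without a PB transcript may still have been found.

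The siSTAMBPL1 libraries named 25463 and 17584 PB transcripts in 119505 and 94432 events, and the siNC libraries named 32307 and 32750 in 140317 and 142215 events. The siSTAMBPL1 lists, and that of replicate 2 above all, were thus shorter than both siNC lists. STAMBPL1 itself (ENSG00000138134, chromosome 10) had 1 and 1 events in the siSTAMBPL1 libraries and 3 and 6 in the siNC libraries. It held 0 and 0 PB transcripts in the siSTAMBPL1 libraries against 1 and 4 in the siNC libraries, and no microexon. Of 10 hepatocyte markers, 9 had no event in any library within their RefSeq spans, among them ALB, APOB, AFP and SERPINA1. The remaining one, the hepatic transcription factor HNF4A, had 0 and 4 events in siSTAMBPL1 libraries and 8 and 6 in siNC libraries. A gene whose known transcripts differ in no splicing event gives no event even if it is transcribed, and the Ensembl transcripts of these markers were not used here.

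Lengths divisible by 3 dominated the microexons. Such lengths are called frame-keeping below by length alone. Whether an exon lies in coding sequence was not examined. A length divisible by 3 was found in 422 of the 600 distinct exons, and the median length was 21 bases (quartiles 12 and 24). Per event the share was 70.3% (437 of 622; 95% Clopper-Pearson interval 66.5 to 73.8), against 50.1% of annotated skipped exons of 28 to 51 bases and 40.2% of those of 52 bases or more. The share was higher in the shorter bins: 82 of 100 exons of 3 to 9 bases, 83 of 107 of 10 to 15, 106 of 147 of 16 to 21, and 151 of 246 of 22 to 27. Exons of 3, 6 and 9 bases numbered 21, 28 and 33, while those of 4, 5, 7 and 8 bases numbered 3, 4, 3 and 8.

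**Figure D1:**
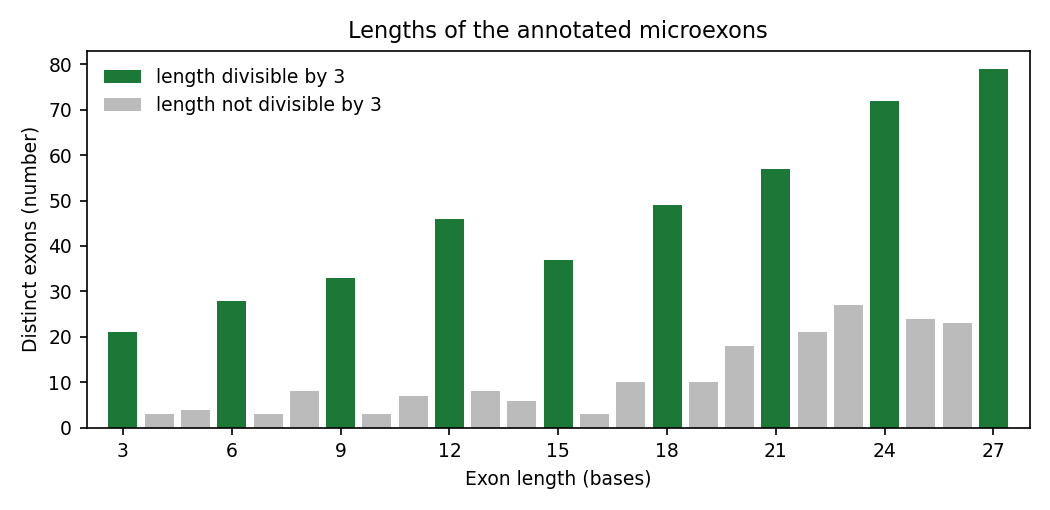
Number of distinct microexons (vertical axis) of each length in bases (horizontal axis), pooled over the 4 libraries, with lengths divisible by 3 in green and other lengths in grey. The green bars stand above their grey neighbours at every multiple of 3, with 72 exons of 24 bases and 79 of 27 bases at the right.

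The excess of frame-keeping lengths was seen in every library. Among the microexons listed, 69.6% and 70.4% had a length divisible by 3 in the siSTAMBPL1 libraries, against 70.4% and 70.4% in the siNC libraries. Set against exons of 28 to 51 bases of the same library, the microexons' share was higher by 19.2 percentage points on average, and by 29.7 points against exons of 52 bases or more. Both differences had the same sign in 4 of 4 libraries, with an exact two-sided sign-flip p of 0.125, the smallest that 4 libraries allow. The libraries share most of their exons, so they are not independent measurements of this share. An exon's length does not vary between libraries, so the like sign was largely fixed in advance. The p-value therefore gives no support to these differences. Between siSTAMBPL1 and siNC the share differed by -0.394 points (70.0% ± 0.548 against 70.4% ± 0.0147, SD, n = 2 each), and the groups overlapped in their order (exact permutation p = 0.667).

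At the edge of the rule, 79 distinct exons had 27 bases, whereas 28 had 28 bases, 23 had 29 and 66 had 30. At the lower edge 21 had 3 bases, 0 had 2 and 1 had 1. The introns on both sides of microexons had a median length of 1704 bases upstream and 1450 bases downstream. For exons of 28 to 51 bases the medians were 2028 and 2122 bases, and for longer exons 2177 and 2036 bases. The upstream quartiles of the microexons, 604 and 4728 bases, covered these medians, so intron length overlapped widely between the classes.

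Most host genes carried a single member. A single microexon was found in 460 genes, 2 in 50, 3 in 10 and 4 in 3. The genes with 4 were ASAH1, the lysosomal acid ceramidase, CLASP1, a microtubule plus-end protein, and MACF1, a giant linker of microtubules and actin. Their exon lengths were 12, 15, 18 and 21 bases in ASAH1, 3, 24, 27 and 24 in CLASP1, and 6, 9, 15 and 18 in MACF1. Microexons of the same gene share its PB transcripts and are no independent observations. Of the 600 exons, 101 also occurred in an event of mutually exclusive exons, and 19 in a skipped-exon event in which 1 form had no Ensembl transcript.

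The microexon events were mostly listed in all libraries. A listed event can rest on transcripts that skip the exon alone. Of the 622 events, 412 (66.2%) were listed in all 4 libraries, 88 in 3, 58 in 2 and 64 in 1. The shares listed in all 4 were 64.2% for exons of 28 to 51 bases and 64.1% for longer ones, inside the microexons' interval of 62.4 to 70.0%. Per library 517 and 490 microexon events were listed in the siSTAMBPL1 libraries and 544 and 541 in the siNC libraries. Where a microexon was missing, its gene had other events in 45 of 105 and 57 of 132 cases in the siSTAMBPL1 libraries. In the siNC libraries this held for 42 of 78 and 48 of 81. The remaining missing microexons lay in genes with no listed event in that library.

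PB skipping was found for more of the microexons than PB inclusion. Forms found under an Ensembl name alone are not counted here. Of the microexons with any PB transcript, a PB inclusion transcript was found for 33.3% (124 of 372) and 29.9% (100 of 335) in the siSTAMBPL1 libraries. In the siNC libraries it was found for 35.6% (135 of 379) and 34.9% (135 of 387). The 95% Clopper-Pearson intervals ran from 28.6 to 38.4 and 25.0 to 35.1% in the siSTAMBPL1 libraries, and from 30.8 to 40.7 and 30.1 to 39.9% in the siNC libraries. They cover counting error only and treat exons as independent. PB skipping was found for 86.0% and 85.1% of the same microexons in siSTAMBPL1 libraries and for 85.0% and 85.8% in siNC libraries.

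PB inclusion was found for a larger share of longer skipped exons in the same libraries. PB inclusion reached 52% and 49.7% for exons of 28 to 51 bases in siSTAMBPL1 libraries, and 51.8% and 53.9% in siNC libraries. For exons of 52 bases or more it was 60.3% and 58.4% in siSTAMBPL1 libraries and 60.6% and 60.9% in siNC libraries. The microexons' share lay below that of exons of 28 to 51 bases by 18.7 and 19.9 points in the siSTAMBPL1 libraries and by 16.1 and 19.0 points in the siNC libraries. The mean difference was -18.4 points, and -26.6 points against exons of 52 bases or more, with the same sign in 4 of 4 libraries in both cases (exact two-sided sign-flip p = 0.125, the smallest possible). Here too the libraries share most of their exons and are not independent measurements of these differences. The annotation leans the same way: of the Ensembl transcripts named for these events, 36.4% included the exon among microexons, against 43.9% for 28 to 51 bases and 46.9% for longer exons. The part of that annotation in the difference was not tested.

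**Figure D2:**
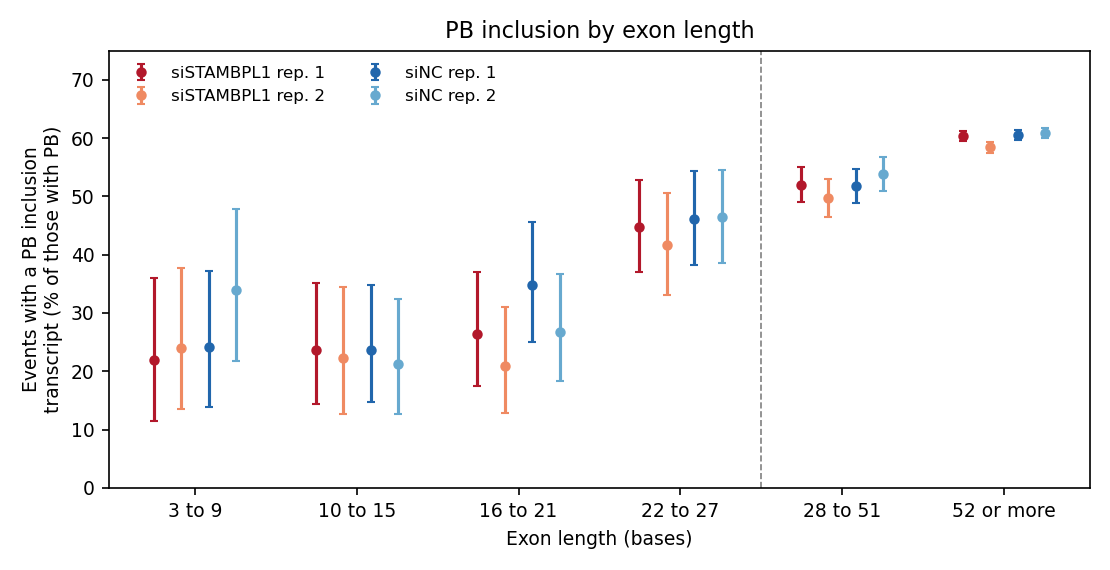
Share of events with a PB inclusion transcript among those with any PB transcript (vertical axis, %), by exon length in bases (horizontal axis) and library (colour), with exact 95% binomial intervals; the dashed line separates microexons from longer exons. Microexons of 3 to 21 bases lie between 20.9 and 34.8%, those of 22 to 27 bases between 41.7 and 46.5%, and longer exons at 49.7% or above.

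Within the microexons the share was higher in the longest bin. For 22 to 27 bases it was 44.8% and 41.7% in siSTAMBPL1 libraries, and 46.2% and 46.5% in siNC libraries. For 10 to 15 bases it was 23.6% and 22.2% in siSTAMBPL1 libraries, and 23.7% and 21.3% in siNC libraries. The bins of 3 to 9 and 16 to 21 bases ranged from 22% to 33.9% and from 20.9 to 34.8% over the 4 libraries and did not separate from each other. Frame-keeping microexons had the lower share in 3 of the 4 libraries: PB inclusion was found for 32.5% and 28.5% of frame-keeping microexons in siSTAMBPL1 libraries and 35.1% and 35.0% in siNC libraries. For other lengths the values were 35.6% and 33.3% in siSTAMBPL1 libraries and 37.1% and 34.6% in siNC libraries. The Ensembl transcripts that include the exon followed a like order, 29.8% for 3 to 9 bases, 29.3% for 10 to 15, 34.3% for 16 to 21 and 44.1% for 22 to 27.

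PB transcripts were also summed over exons, so that a transcript spanning several microexons counts once for each. In siSTAMBPL1 replicate 1 the sums were 290 for inclusion and 958 for skipping, an inclusion part of 23.2% of these transcript structures, and in siSTAMBPL1 replicate 2 the part was 23.0%. In the siNC libraries it was 22.7% and 21.5%. The siSTAMBPL1 libraries were thus slightly above the siNC libraries on this count and below them on the share of exons. For exons of 28 to 51 bases the inclusion part lay between 38.4 and 40.4% over the 4 libraries, and for longer exons between 51.4 and 52%.

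Which form of an event was found could in part be worked out from Ensembl transcripts as well. As inferred from the lists, an annotated event was listed when at least 1 of its transcripts was found in that library, with 0 exceptions among the events that could have shown one. A missing event therefore shows that none of its Ensembl transcripts was found, and a listed event with a single transcript left shows that this one was. By this deduction inclusion was certain for 28% and 25.7% of the microexons listed in siSTAMBPL1 libraries and 29.4% and 28.3% in siNC libraries. Skipping was certain for 69.8% and 69.2% in siSTAMBPL1 libraries and for 67.6% and 69.5% in siNC libraries. Inclusion was shown not to have been found for 10.8% and 15.9% in siSTAMBPL1 libraries and 10.7% and 11.1% in siNC libraries. The remaining events left 1 or both forms undetermined.

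**Figure D3:**
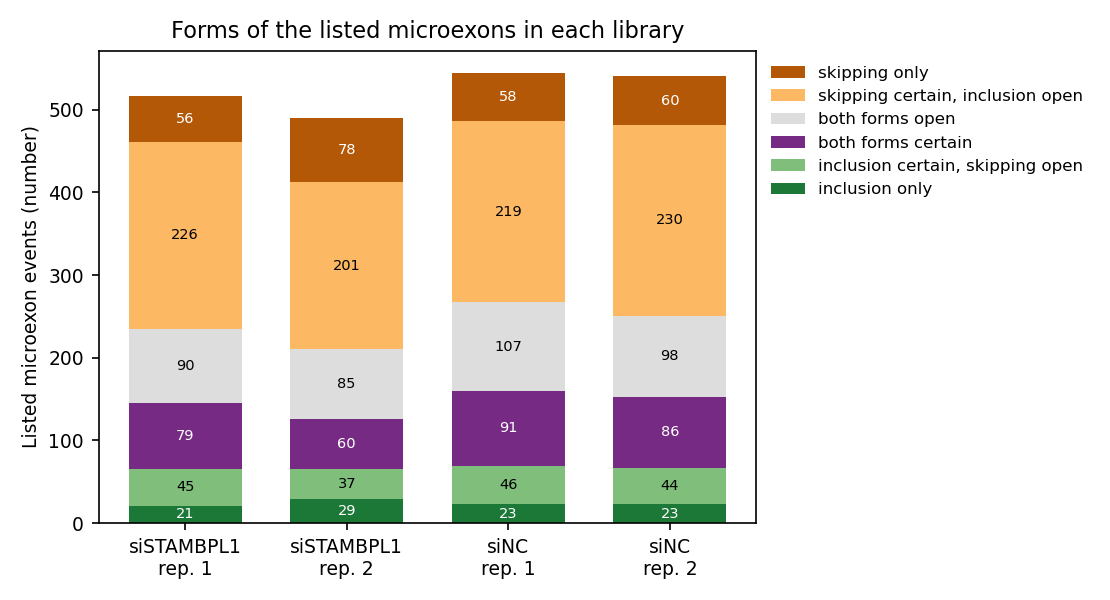
Number of listed microexon events (vertical axis) in each of the 4 libraries, split by which form was certainly found, not found or undetermined ("open" in the legend). Events with skipping certain and inclusion undetermined form the largest block, 226 and 201 in the siSTAMBPL1 libraries and 219 and 230 in the siNC libraries, and those with both forms certain number 79 and 60 in siSTAMBPL1 and 91 and 86 in siNC.

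Across the 412 microexons listed in all 4 libraries, PB skipping was constant far more often than PB inclusion. PB skipping was present in all 4 libraries for 187 (45.4%), and PB inclusion for 49 (11.9%). In 119 of them (28.9%) all 4 libraries had PB skipping and none had PB inclusion, against 14.1% of exons of 28 to 51 bases and 11.4% of longer ones. Both forms were certain in all 4 libraries for 23. Inclusion was certainly not found in any of the 4 libraries for 9 (2.18%), against 0.485% of exons of 28 to 51 bases and 1.17% of longer ones. Skipping was certainly not found in any for 0, against 0.727% and 0.976% of these classes, with an exact 95% upper bound of 0.891% for the microexons. These 9 were exons of LIMA1 (22 bases), FERMT2 (19), EIF4G3 (21), RHOC (24), LMBRD1 (20), SMAGP (20), POLR1D (25) and the noncoding RNA genes LINC-PINT (21) and PVT1 (10). LIMA1 and FERMT2 encode actin-linked and integrin-linked adaptor proteins, and RHOC encodes a small GTPase of the cytoskeleton. Their names were read off after the values were seen.

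The exons with the most PB inclusion were those of PICALM and PCBP2. PICALM, a clathrin adaptor of endocytosis, has a microexon of 24 bases at 11:85978070-85978093 on the minus strand. It was included in 13 and 10 PB transcripts of the siSTAMBPL1 libraries and 19 and 20 of the siNC libraries, and skipped in 7 and 4 (siSTAMBPL1) against 6 and 10 (siNC). Inclusion outnumbered skipping in all 4 libraries. PCBP2, an RNA-binding protein of C-rich sequences, has a microexon of 24 bases at 12:53455347-53455370 on the plus strand. It was included in 12 and 7 PB transcripts of siSTAMBPL1 libraries and 16 and 14 of siNC libraries, and skipped in 0 of any library. GRAMD1A, a sterol carrier at membrane contacts, included its 21 bases (19:35009423-35009443) in 7 and 3 PB transcripts of siSTAMBPL1 libraries and 6 and 5 of siNC libraries, also with 0 skipping. By the deduction, however, skipping of the GRAMD1A exon was certain in siNC replicate 2.

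Other exons were used in both forms side by side. FIP1L1, a subunit of the polyadenylation machinery, included its 27 bases (4:53440582-53440608) in 6 and 9 PB transcripts of siSTAMBPL1 libraries and 11 and 9 of siNC libraries, and skipped them in 9 and 6 (siSTAMBPL1) against 6 and 5 (siNC). GPBP1, a promoter-binding factor, included its 21 bases (5:57221376-57221396) in 6 and 6 PB transcripts of siSTAMBPL1 libraries and 6 and 5 of siNC libraries, and skipped them in 6 and 3 (siSTAMBPL1) against 7 and 5 (siNC). In NT5C2, a cytosolic purine nucleotidase, skipping led in every library. Its 24 bases (10:103105358-103105381) were included in 2 and 7 PB transcripts of siSTAMBPL1 libraries and 7 and 8 of siNC libraries, and skipped in 14 and 11 (siSTAMBPL1) against 25 and 17 (siNC). For none of these 3 exons did the inclusion and skipping numbers separate the groups in opposite directions.

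The smallest exons at this end were those of CLASP2 and SUPT5H. CLASP2, a protein of microtubule plus ends, included an exon of 3 bases (3:33566732-33566734), the length of 1 codon, in 6 and 6 PB transcripts of siSTAMBPL1 libraries and 5 and 7 of siNC libraries. It was skipped in 0 and 0 (siSTAMBPL1) against 1 and 0 (siNC). The CLASP2 exon of 24 bases (3:33574473-33574496) was instead skipped in 6 and 6 (siSTAMBPL1) against 7 and 6 (siNC) and included in 0. Its inclusion was left undetermined by the deduction in every library. SUPT5H, a subunit of the elongation factor DSIF, included its 12 bases (19:39458294-39458305) in 7 and 6 PB transcripts of siSTAMBPL1 libraries and 7 and 4 of siNC libraries, and skipped them in 2 and 1 (siSTAMBPL1) against 3 and 3 (siNC). FLNA, the actin crosslinker filamin A, included its 24 bases (X:154357251-154357274) in 5 and 3 PB transcripts of siSTAMBPL1 libraries and 10 and 5 of siNC libraries, and skipped them in 2 and 2 (siSTAMBPL1) against 3 and 4 (siNC). In the first CLASP2 exon and in those of SUPT5H and FLNA inclusion outnumbered skipping in every library.

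Of the other exons with the most PB inclusion, 4 had more inclusion than skipping transcripts when the libraries were summed, and 2 had fewer. MIA3, an organiser of collagen export, SEPTIN2, a septin of the cytoskeleton, and NUP214, a nuclear pore protein, have exons of 22, 26 and 25 bases, none divisible by 3. MIA3 had 5 and 8 inclusion transcripts in siSTAMBPL1 libraries and 7 and 3 in siNC libraries, and 1 and 1 skipping transcripts (siSTAMBPL1) against 0 and 0 (siNC). SEPTIN2 had 3 and 5 inclusion transcripts in siSTAMBPL1 libraries and 3 and 8 in siNC libraries, with a single skipping transcript, in siSTAMBPL1 replicate 1. For SEPTIN2 the deduction made skipping certain in siSTAMBPL1 replicate 2 as well. NUP214 had 2 and 3 inclusion transcripts in siSTAMBPL1 libraries and 5 and 6 in siNC libraries, with a single skipping transcript, in siNC replicate 2. NARS2, a mitochondrial tRNA synthetase, had 6 and 5 inclusion transcripts in siSTAMBPL1 libraries and 2 and 5 in siNC libraries, and 0 and 2 skipping transcripts (siSTAMBPL1) against 3 and 2 (siNC). FMNL1, a formin, and MECOM, a zinc finger transcription factor, were skipped in 8 and 10 and in 5 and 3 PB transcripts of siSTAMBPL1 libraries, and in 6 and 8 and in 10 and 11 of siNC libraries. They were included in 10 and 3 and in 5 and 1 PB transcripts of siSTAMBPL1 libraries, and in 4 and 4 and in 6 and 6 of siNC libraries.

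**Figure D4:**
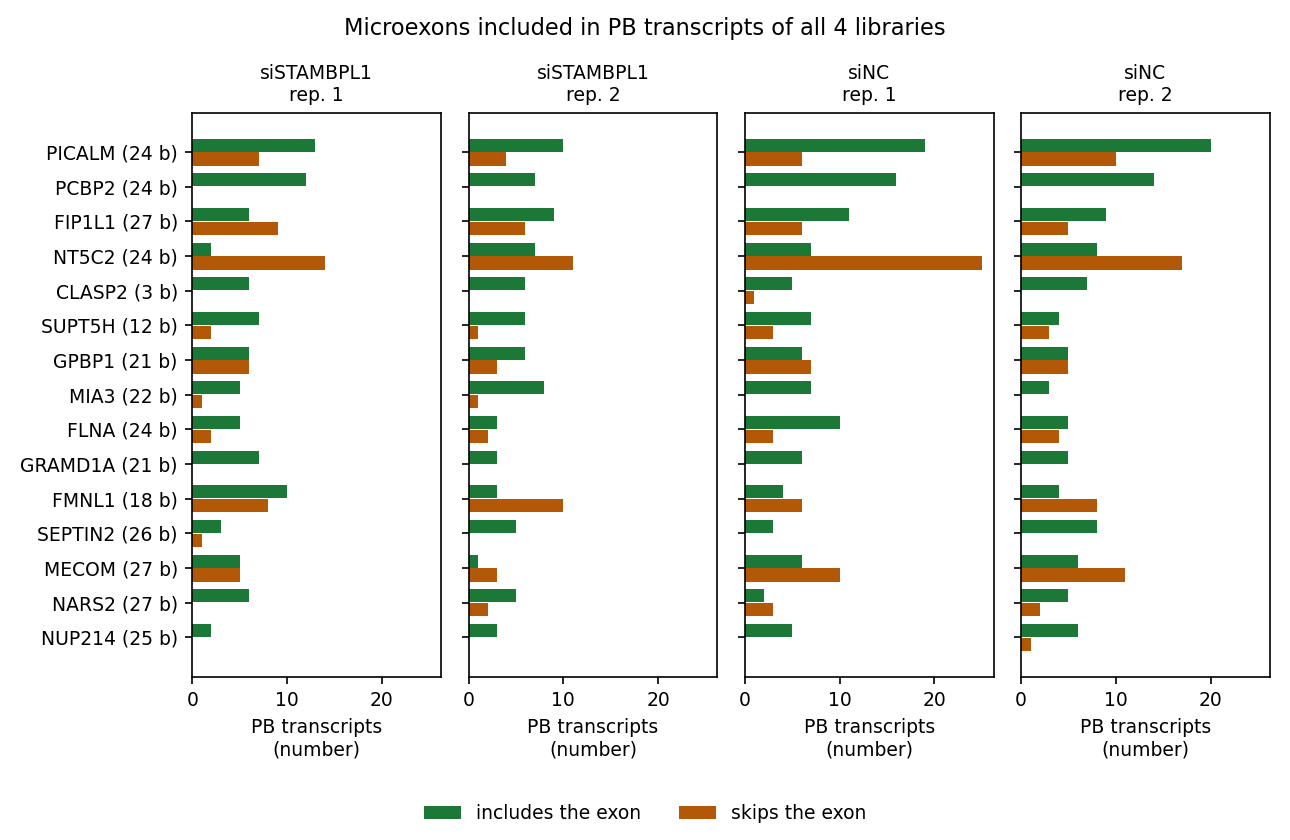
Number of PB transcripts (horizontal axis) that include (green) or skip (brown) the 15 microexons with the most PB inclusion among those included in all 4 libraries, 1 row per exon with its length in bases and 1 panel per library, siSTAMBPL1 at the left. PICALM and PCBP2 have the longest green bars, up to 20 and 16, and NT5C2 has the longest brown bars, up to 25.

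Exons of only 3 bases were found in both forms. ASXL1, a chromatin regulator of the Polycomb system, included its 3 bases (20:32367727-32367729) in 1 and 4 PB transcripts of siSTAMBPL1 libraries and 0 and 4 of siNC libraries, and skipped them in 1 and 0 (siSTAMBPL1) against 2 and 0 (siNC). CLASP1, the paralogue of CLASP2, included its 3 bases (2:121401868-121401870) in 2 and 3 PB transcripts of siSTAMBPL1 libraries and 0 and 5 of siNC libraries. It was skipped in 1, in siNC replicate 2. Summed over the libraries, the CLASP1 exons of 24, 27 and 24 bases had 3, 0 and 0 PB inclusion transcripts. Their PB skipping transcripts numbered 9, 12 and 11. In VDAC3, a channel of the outer mitochondrial membrane, the 3 bases (8:42396678-42396680) were skipped in 1 and 1 PB transcripts of siSTAMBPL1 libraries and 2 and 2 of siNC libraries and included in 0 of any. MON2, a trafficking protein of the Golgi, was likewise skipped in 1 and 3 (siSTAMBPL1) against 1 and 0 (siNC) and included in 0. CDYL2, a chromodomain protein, had 3 such exons, each skipped in 1 and 1 PB transcripts of siSTAMBPL1 libraries and 0 and 0 of siNC libraries and included in 0. For these exons of VDAC3, MON2 and CDYL2 the deduction left inclusion undetermined in every library. CYTH2, an exchange factor for ARF GTPases, had 1 PB inclusion transcript, in siSTAMBPL1 replicate 2, and 1 PB skipping transcript, in siNC replicate 1. For CYTH2 the deduction made inclusion certain in every library. RIT1, a small GTPase, had 0 of either, and the deduction showed skipping without inclusion in 3 of the 4 libraries.

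A list of 43 genes known for regulated, mostly neuronal or muscle microexons was examined as well. Of these, 40 had an annotated event, and 31 of them held 49 of the members. Their lengths were divisible by 3 in 45 of 49. PB inclusion was found in any library for 13 of 49 (26.5%) and PB skipping for 47 of 49 (95.9%). For the other 573 members these shares were 33.0% and 70.0%. PB skipping without any PB inclusion over all libraries was seen for 36 of 49 (73.5%) on the list and 265 of 573 (46.2%) off it. No PB transcript at all was found for 0 of 49 on the list and 119 of 573 (20.8%) off it. These 119 members stay in the base of the off-list shares and lower them. The shares on and off the list thus do not have a like base. The list was written with earlier results of these data known, and its shares are given as a description.

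Among chromatin and transcription regulators on the list, 4 exons are described. The 12 bases of KDM1A (1:23066060-23066071), the histone demethylase whose neuronal form contains this insert, were skipped in 18 and 5 PB transcripts of siSTAMBPL1 libraries and 20 and 13 of siNC libraries, and included in 0. The 6 bases of TAF1 (X:71455007-71455012), the largest subunit of the general factor TFIID, were skipped in 0 and 2 (siSTAMBPL1) against 0 and 2 (siNC) and included in 0. MEF2A, a MADS-box transcription factor of muscle and brain, had 1 PB inclusion transcript of its 24 bases (15:99703362-99703385), in siSTAMBPL1 replicate 1. It was skipped in 3 and 3 PB transcripts of siSTAMBPL1 libraries and 7 and 6 of siNC libraries. The MEF2A gene had 5 and 3 PB transcripts of any kind in siSTAMBPL1 libraries and 7 and 6 in siNC libraries. By the deduction, inclusion of this exon was certain in both siSTAMBPL1 libraries, not found in siNC replicate 1 and undetermined in siNC replicate 2. KDM1A and TAF1 overlapped between the groups, and the deduction left inclusion of both exons undetermined in every library. PHF21A, a reader of histone marks, differed from the other exons in having PB inclusion only, in 1 transcript of siNC replicate 2 (23 bases). The PHF21A exon was not listed in siSTAMBPL1 replicate 2. By the deduction its inclusion was certain in both siNC libraries, and both forms were undetermined in siSTAMBPL1 replicate 1.

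The list also holds translation factors. The 21 bases of EIF4G1 (3:184316713-184316733), the scaffold of the cap-binding complex, were skipped in 8 and 6 PB transcripts of siSTAMBPL1 libraries and 8 and 10 of siNC libraries and included in 0. Those of its paralogue EIF4G3 (1:20982388-20982408) were skipped in 3 and 4 (siSTAMBPL1) against 3 and 6 (siNC), and the inclusion form was shown not to have been found in any of the 4 libraries. The 24 bases of CPEB4 (5:173943026-173943049), a regulator of poly(A) tails, were skipped in 1 and 1 PB transcripts of siSTAMBPL1 libraries and in 1 of siNC replicate 2, and the gene had no event in siNC replicate 1. The deduction left inclusion of the EIF4G1 exon undetermined in every library, and that of the CPEB4 exon in each library that listed it.

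Of the signalling and adhesion genes on the list, SRC, PTK2, ABI1 and PTPRF had these values. The 18 bases of SRC (20:37386460-37386477), the tyrosine kinase whose neuronal isoform carries an insert in the SH3 domain, were skipped in 1 and 0 PB transcripts of siSTAMBPL1 libraries and 2 and 1 of siNC libraries and included in 0. PTK2, focal adhesion kinase, had 3 microexons. That of 9 bases (8:140669727-140669735) was included in 2 and 0 PB transcripts of siSTAMBPL1 libraries and 2 and 3 of siNC libraries and skipped in 9 and 11 (siSTAMBPL1) against 8 and 22 (siNC). That of 21 bases was skipped in 12 and 11 (siSTAMBPL1) against 15 and 29 (siNC) and included in 0, and that of 18 bases was included in a single PB transcript, in siSTAMBPL1 replicate 1. The 15 bases of ABI1, an actin regulator of the WAVE complex, were skipped in 9 and 7 PB transcripts of siSTAMBPL1 libraries and 5 and 9 of siNC libraries and included in 0. The 18 bases of PTPRF, a receptor phosphatase of cell adhesion, were skipped in 4 and 1 (siSTAMBPL1) against 7 and 4 (siNC) and included in 0. The 27 bases of its other microexon were skipped in 3 and 1 (siSTAMBPL1) against 7 and 4 (siNC) and included in 0, though the deduction made inclusion certain in siSTAMBPL1 replicate 2. Inclusion of the SRC and ABI1 exons was left undetermined by the deduction in every library. This also held for the 21 bases of PTK2 and the 18 bases of PTPRF.

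Trafficking and cytoskeletal genes on the list varied from exon to exon. SPTAN1, a spectrin, had 0 PB inclusion transcripts of its 15 bases and 2 and 3 PB skipping transcripts in siSTAMBPL1 libraries, with 5 and 4 in siNC libraries. The deduction left inclusion of this exon undetermined in every library. DNM2, the ubiquitous dynamin of membrane scission, included its 12 bases (19:10808569-10808580) in 5 and 2 PB transcripts of siSTAMBPL1 libraries and 4 and 2 of siNC libraries, and skipped them in 4 and 1 (siSTAMBPL1) against 4 and 4 (siNC). MACF1 included its 9 bases (1:39436482-39436490) in 0 and 1 PB transcripts of siSTAMBPL1 libraries and 3 and 1 of siNC libraries, with 0 skipping, and the deduction made inclusion certain in all 4. Summed over the libraries that listed them, the MACF1 exons of 6, 15 and 18 bases had 0, 0 and 6 PB inclusion transcripts. Their PB skipping transcripts numbered 6, 10 and 4. ERC1, a scaffold of vesicle docking, included its 12 bases (12:1204501-1204512) in 1 and 1 (siSTAMBPL1) against 1 and 0 (siNC) and skipped them in 0 and 2 (siSTAMBPL1) against 7 and 7 (siNC). ITSN1, an endocytic scaffold, had no PB inclusion of its 15 bases (21:33802430-33802444), with 3 and 1 PB skipping transcripts in siSTAMBPL1 libraries and 2 and 5 in siNC libraries. For it the deduction from Ensembl transcripts made inclusion certain in siSTAMBPL1 replicate 2 and both siNC libraries and not found in siSTAMBPL1 replicate 1. DCTN1, a subunit of dynactin, included its 15 bases in 2 and 0 PB transcripts of siSTAMBPL1 libraries and 0 and 1 of siNC libraries and skipped them in 5 and 3 (siSTAMBPL1) against 7 and 6 (siNC).

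**Figure D5:**
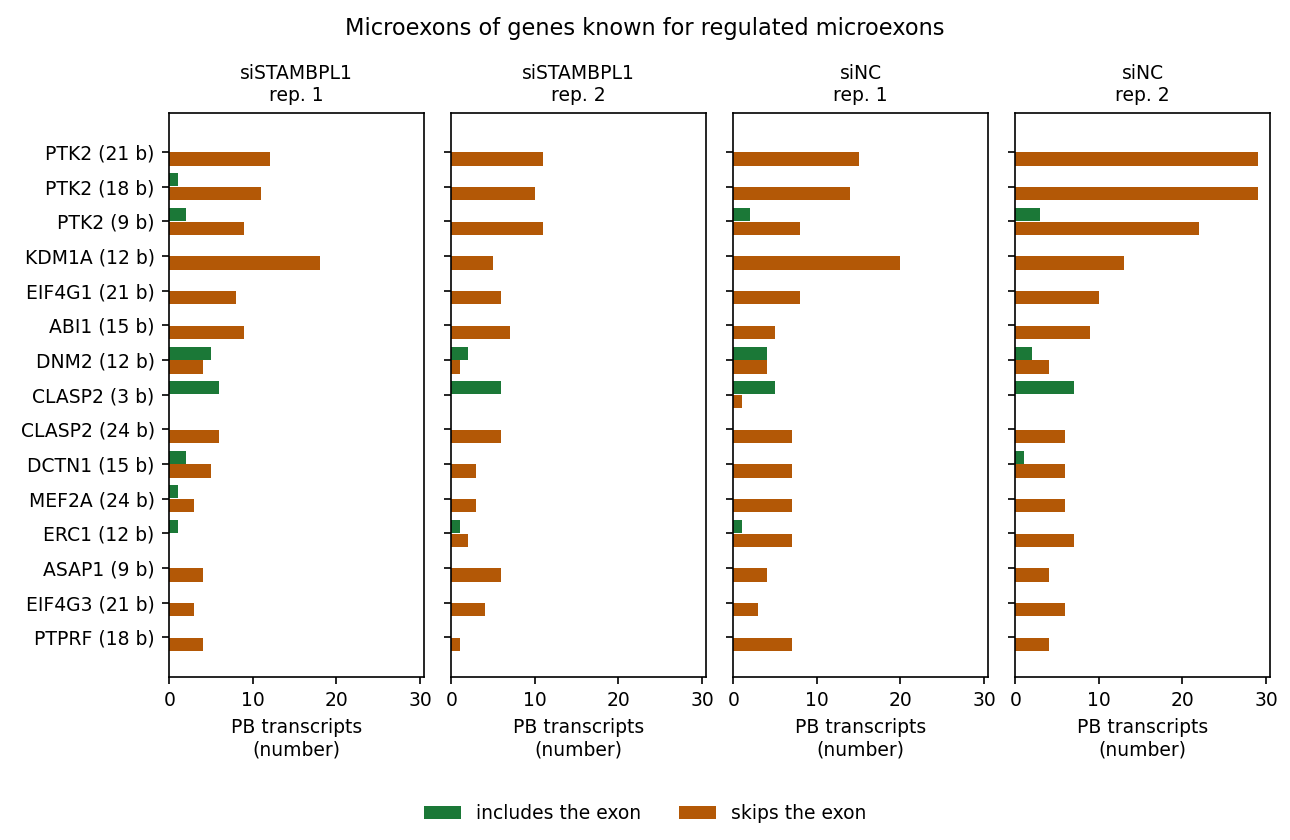
Number of PB transcripts (horizontal axis) that include (green) or skip (brown) the 15 microexons with the most PB transcripts among those of the gene list that were listed in all 4 libraries, 1 row per exon with its length in bases and 1 panel per library, siSTAMBPL1 at the left. Brown bars lead in most rows, as for KDM1A with up to 20 and PTK2 with up to 29 skipping transcripts.

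After STAMBPL1 knockdown the number of listed microexon events was 503.5 ± 19.1, against 542.5 ± 2.12 in siNC (SD, n = 2 each), a ratio of 0.928. Both siSTAMBPL1 libraries lay below both siNC libraries (exact two-sided permutation p = 0.333, the smallest that 2 against 2 allows, so no difference between groups can pass 0.05). Longer skipped exons gave ratios of 0.914 for 28 to 51 bases and 0.920 for 52 bases or more, so microexons were fewer by about as much as other skipped exons. As a share of all annotated skipped exons listed, microexons made up 2.47% and 2.55% in siSTAMBPL1 libraries and 2.51% and 2.46% in siNC libraries. That difference was 0.0243 points with overlapping groups (exact permutation p = 0.667). The siSTAMBPL1 lists also held fewer PB transcripts, and depth in reads is not given in the sources used here, so its part in the lower number was not tested. In bulk RNA, fewer cells with a transcript and less of it per cell cannot be told apart.

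The share of microexons with a PB inclusion transcript was lower in both siSTAMBPL1 libraries than in either siNC library, while the inclusion part of the summed PB transcripts was higher in both (23.2% and 23.0% in siSTAMBPL1, 22.7% and 21.5% in siNC). The mean share of microexons was 31.6% ± 2.46 in siSTAMBPL1 and 35.3% ± 0.521 in siNC (SD, n = 2 each), a difference of -3.66 points (exact permutation p = 0.333). The 95% intervals of all 4 libraries overlapped, and the siSTAMBPL1 lists were the shorter ones. It was -1.95 points for exons of 28 to 51 bases (exact permutation p = 0.667) and -1.34 points for longer ones (exact permutation p = 0.333). Inclusion certain by the deduction was 26.9% ± 1.65 in siSTAMBPL1 and 28.8% ± 0.800 in siNC (SD, n = 2 each), a difference of -1.97 points (exact permutation p = 0.333).

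Few microexons were listed in 1 group alone. Both siSTAMBPL1 libraries and neither siNC library listed 5 (0.804%), where 1.02% of all annotated skipped exons met the same rule. The reverse held for 21 (3.38%), listed in siNC replicates 1 and 2 but in no siSTAMBPL1 library, against 3.37% of all annotated skipped exons. Both shares were near those of all skipped exons. Of the 523 host genes, 137 (26.2%) had fewer events in both siSTAMBPL1 libraries than in both siNC libraries, where 22.5% of all genes did, and 32 (6.12%) had more, where 4.47% of all genes did. Events in both siSTAMBPL1 libraries and none in siNC were found for 3 of the 523 host genes, where 0.779% of all genes met that rule, and the reverse for 13, where 3.29% of all genes did. All genes were taken without matching to the host genes by number of events. No single event can be tested in lists of presence and absence from 2 against 2 libraries.

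Of the 5 microexons on the siSTAMBPL1 side, a single one lay in a gene with other events in all 4 libraries. This was the exon of 6 bases of APBB3 (5:140561844-140561849), an adaptor of the FE65 family that binds the amyloid precursor protein, whose gene had 16 and 13 events in siSTAMBPL1 libraries and 3 and 6 in siNC libraries. It had no PB transcript of either form. MEF2D, a MADS-box transcription factor, had its 21 bases (1:156476494-156476514) skipped in 2 and 1 PB transcripts of siSTAMBPL1 libraries, and its gene had 5 and 5 events in siSTAMBPL1 libraries and 0 and 0 in siNC libraries. The other three were in FBXO16, ATXN3, a deubiquitinase, and the zinc finger gene ZNF431, with exons of 26, 27 and 22 bases. ATXN3 and ZNF431 had no event in siNC libraries, and FBXO16 had 0 and 6.

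Of the 21 on the siNC side, 6 lay in genes with other events in all 4 libraries. CDHR5, a cadherin of the epithelial brush border, had its 24 bases (11:621812-621835) skipped in 1 and 1 PB transcripts of siNC libraries, with 19 and 10 gene events in siSTAMBPL1 libraries and 24 and 22 in siNC libraries. The 27 bases of the formin DIAPH1 (5:141588224-141588250) and the 18 bases of the helicase EIF4A1 (17:7578227-7578244) were each included in 1 PB transcript, in siNC replicate 2. The exons of USB1 (22 bases), NSMF (6) and C12orf75 (25) had no PB transcript. The others named by rank were exons of ESPN (27 bases), GRAMD1B (21 and 12), APBB2 (6), MSH5 (27) and DGKQ (21). ESPN, GRAMD1B and DGKQ had 0 events of any kind in both siSTAMBPL1 libraries, and APBB2 and MSH5 had 0 in siSTAMBPL1 replicate 2.

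PB inclusion in both siNC libraries, with PB skipping and no PB inclusion in both siSTAMBPL1 libraries, was found for 4 microexons (0.643%). This was near the 0.595% of all annotated skipped exons that met the rule. In 3 of the 4 the skipping form was present in both groups, and in SUCO alone the siNC libraries had no PB skipping. The opposite pattern was found for 0 of 622, with an exact 95% upper bound of 0.591%, where 0.203% of all annotated skipped exons met it. In SUCO, a membrane protein with a SUN domain, 21 bases (1:172577539-172577559) were included in 0 and 0 PB transcripts of siSTAMBPL1 libraries and 3 and 1 of siNC libraries, and skipped in 1 and 1 (siSTAMBPL1) against 0 and 0 (siNC). In PHLDB2, an anchor of cortical microtubules, 21 bases (3:111958275-111958295) were included in 0 and 0 (siSTAMBPL1) against 2 and 1 (siNC), and skipped in 3 and 3 (siSTAMBPL1) against 2 and 4 (siNC). In each of the 4 exons a single PB transcript in 1 siNC library decided the call. The SUCO gene had only 1 and 1 PB transcripts of any kind in siSTAMBPL1 libraries, against 3 and 1 in siNC libraries. The deduction left inclusion of the SUCO exon undetermined in both siSTAMBPL1 libraries. Inclusion of the PHLDB2 exon was not found in siSTAMBPL1 replicate 1 and undetermined in siSTAMBPL1 replicate 2.

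The remaining pair were in a neuronal and a chromatin gene. In NAV2, a neuron navigator protein, 9 bases (11:20082592-20082600) were included in 0 and 0 PB transcripts of siSTAMBPL1 libraries and 2 and 1 of siNC libraries, and skipped in 2 and 2 (siSTAMBPL1) against 2 and 1 (siNC). In MTA1, a subunit of the NuRD complex, 12 bases (14:105468338-105468349) were included in 0 and 0 (siSTAMBPL1) against 1 and 2 (siNC), and skipped in 4 and 5 (siSTAMBPL1) against 9 and 8 (siNC). MTA1 thus also had fewer PB transcripts in siSTAMBPL1 libraries, 6 and 6 for the gene against 11 and 10 in siNC libraries. Inclusion of the MTA1 exon was left undetermined by the deduction in both siSTAMBPL1 libraries. By the deduction, 2 microexons had inclusion certain in both siNC libraries and not found in both siSTAMBPL1 libraries (0.322%, where 0.325% of all annotated skipped exons did), and 0 the reverse (0.09% of all annotated skipped exons). They were those of NAV2 and of the iron transporter SLC11A2 (25 bases, 12:51005653-51005677). SLC11A2 had 0 and 0 PB inclusion transcripts in siSTAMBPL1 libraries and 1 and 1 in siNC libraries, and 2 and 0 PB skipping transcripts (siSTAMBPL1) against 4 and 3 (siNC).

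Regulators of microexons were described by the number of events of their genes. Of 27 on a list, 21 were matched to a gene with an annotated event, and the 6 without such a match were SRRM4, RBFOX1, RBFOX3, NOVA1, NOVA2 and ESRP1. Of the 21, 11 had fewer events in both siSTAMBPL1 libraries than in both siNC libraries, 0 had more and 10 overlapped. Over all genes 22.5% had fewer and 4.47% more, and these genes were not matched to the regulators by number of events. MBNL1, a muscleblind splicing factor, had 0 and 0 events in siSTAMBPL1 libraries and 17 and 15 in siNC libraries. PTBP1, the repressor of neuronal exons, had 27 and 12 (siSTAMBPL1) against 62 and 53 (siNC), and RBFOX2, a binder of intronic enhancers, 11 and 14 (siSTAMBPL1) against 31 and 34 (siNC). CELF1, another splicing factor, had 207 and 181 events in siSTAMBPL1 libraries and 257 and 228 in siNC libraries. SRRM3, the relative of SRRM4 named above, had 1 and 0 events in siSTAMBPL1 libraries and 1 and 0 in siNC libraries. PTBP2, the neuronal paralogue of PTBP1, had 6 and 8 (siSTAMBPL1) against 5 and 10 (siNC), and QKI 11 and 0 (siSTAMBPL1) against 5 and 11 (siNC), so these 3 did not separate the groups. A number of events is not an expression level, and it moves with the length of a library's list.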

How the data were processed

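The authors deposited 1 text list of alternative splicing events for each of the 4 libraries, 2 siSTAMBPL1 and 2 siNC. The deposited values are event names and transcript names, with no count, expression value or score. The submitters' processing notes name hg38 as the build, and the event caller is not given in the sources used here. Skipped-exon events with an exon of 3 to 27 bases and Ensembl transcripts in both forms were kept, with the event name as key. The members and gene lists were chosen with earlier results of these data known.

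Symbols came from RefSeq by position and strand, and 521 of 523 host genes were named. The form found was deduced from listed and missing events. The simulated data used to check this step were listed by the same rule. That check could not test whether the rule holds in these libraries. Libraries were compared with exact permutation tests (Python 3.11.15, SciPy 1.17.1, NumPy 2.4.6; figures with matplotlib 3.10.9). Precision is limited by the number of PB transcripts, 17584 to 32750 per library. Shares have exact 95% Clopper-Pearson intervals for counting error only.

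Named exons were up to 12 per direction listed in both libraries of 1 group alone, ranked first by whether the gene had another event in all 4 libraries and then by PB transcripts. To these were added 15 with PB inclusion in all libraries, every change of form, the 10 shortest listed in all libraries, and members in the gene lists. The hepatocyte markers were chosen after the data were seen. Alternatives were distinct exons in place of events, PB transcripts only, other length limits, genes with events in all libraries, each library left out, and the replicate number as a block. Exon, flank and motif sequences were not analysed here.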

Additional observations from a re-analysis of the deposited data

How the results depend on the processing

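The lower number of listed microexons and the lower share with inclusion certain in siSTAMBPL1 kept their direction under each alternative run. The lower share with PB inclusion kept it under each but 1 chosen after seeing the data: with PB transcripts summed over exons the difference was 1.01 points in the opposite direction; no exact permutation p went below 0.333. Leaving out each library gave a ratio of 0.903 to 0.953 for the number, -5.4 to -1.92 points for PB inclusion and -3.13 to -0.8 points for inclusion certain. The difference in the microexon share of all annotated skipped exons had no stable sign: it was -0.0184 points with exons up to 51 bases, -9.19e-07 with genes present in all 4 libraries, and -0.0116 to 0.0602 with a library left out, of which the negative value came without siSTAMBPL1 replicate 2. The difference in lengths divisible by 3 was 0.0309 points with exons of at most 15 bases and -0.782 to -0.00661 with a library left out. The cause was not tested.

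The count of microexons listed in both siSTAMBPL1 libraries alone was 5 as reported, 1 in genes with another event in all 4 libraries, 12 when only listings with a PB transcript were used, 22 with exons up to 51 bases, and 16 to 21 with a library left out. The count on the siNC side was 21, and 6, 15, 82 and 38 to 60 under the same alternatives. With a library left out, a single library stood for its group, so more exons could meet the rule.

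Same-numbered libraries did not deviate together (r = 0.0549 over 622 microexons), and the labels give the number no meaning. With the replicate number as a block the differences were the same, 0.928, 0.0243, -0.394, -3.66 and -1.97, with an exact p of 0.5 for each but the microexon share, at 1; the smallest p for 2 pairs is 0.5. The counts have no blocked form. The calls on SUCO, PHLDB2, NAV2 and MTA1 rest on 1 to 3 PB inclusion transcripts per siNC library, and the lists hold no read depth.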
